A study of Sparassis latifolia with 18 samples.

Results

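EVM0008017, EVM0013062 and EVM0007103, genes annotated as flavin or FAD-dependent monooxygenases, were followed in mycelium of the brown-rot mushroom Sparassis latifolia given fresh pine sawdust. They were taken by identifier, 3 of the 1100 genes in the deposited FPKM table (fragment counts scaled to transcript length and to the depth of each library). The study's pine sawdust inducing (PSI) was done on strain SP-C, grown in shaken liquid culture in darkness. Sterilized sawdust was added at different moments before a common harvest, and the sawdust was filtered off. The times of PSI are therefore separate cultures, and a longer PSI began in a younger culture. Time of PSI and culture age at addition cannot be told apart. The groups were 1h, 6h, 1d, 5d and 10d of PSI, and the control CK, the same strain in the same medium with 0 h of PSI, with 3 libraries in each of the 6 groups. No group received other wood or an inert powder, so a response to pine and a response to any added solid cannot be told apart.

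Flavin monooxygenases hold FAD, take electrons from NADH or NADPH, and use the reduced flavin to activate molecular oxygen. A single oxygen atom then goes into the substrate and the other leaves as water. Salicylate hydroxylases and their relatives put it on an aromatic ring, whereas the flavin-binding (FMO-like) enzymes usually oxygenate nitrogen, sulfur or the carbon beside a carbonyl group. In fungi both kinds serve the breakdown of aromatic compounds and the making of secondary metabolites.

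In the annotation given by the study, EVM0008017 carries an FAD binding domain, an NAD(P)-binding Rossmann-like domain and a tryptophan halogenase domain. Its KEGG ortholog is salicylate hydroxylase, the enzyme that turns salicylate into catechol, and its closest Swiss-Prot entry is a FAD-dependent monooxygenase of the oosporein gene cluster in the insect pathogen Beauveria bassiana. EVM0013062 carries a flavin-binding monooxygenase-like domain and an L-lysine monooxygenase domain, and its closest entry is a monooxygenase of ustiloxin biosynthesis in Aspergillus flavus. EVM0007103 carries the same flavin-binding domain, and its closest entry is a monooxygenase of the sterigmatocystin cluster in Aspergillus nidulans. What these enzymes act on in S. latifolia is not given by the annotation. Sequences and genome positions of the 3 genes were not used here.

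The study set aside CK replicate 1, 1h replicate 3, 1d replicate 3 and 5d replicate 2 on the basis of correlations between libraries, and the main comparisons below use the other 14 libraries. For some of the genes described here these 4 libraries were far from their groups. In CK replicate 1, EVM0013062 was at 0.401 and EVM0007103 at 0.345 of the mean of the other CK libraries. In 5d replicate 2, EVM0007103 was at 0.373 of the mean of the other 5d libraries, and in 1h replicate 3, EVM0008017 was at 1.49 times the mean of the other 1h libraries. Ranked by size among all genes of the same library, the departures in CK replicate 1 were at percentiles 91.7 and 95.2, that in 5d replicate 2 at 94.97 and that in 1h replicate 3 at 81.2. In 1d replicate 3 the departures of the 3 genes were near the middle, at percentiles 54.5 to 58.2. Values with all 18 libraries are therefore given beside the main ones.

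The 3 genes took different courses. EVM0008017 was up-regulated early, with its highest mean at 6h (7.74 times CK). EVM0013062 was lower than CK at all 5 times, with its lowest mean at 10d (0.231 of CK). EVM0007103 had its lowest mean at 1h (0.549 of CK) and its highest at 5d (5.92 times CK). These ratios are of mean FPKM over the 14 libraries.

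**Figure D1:**
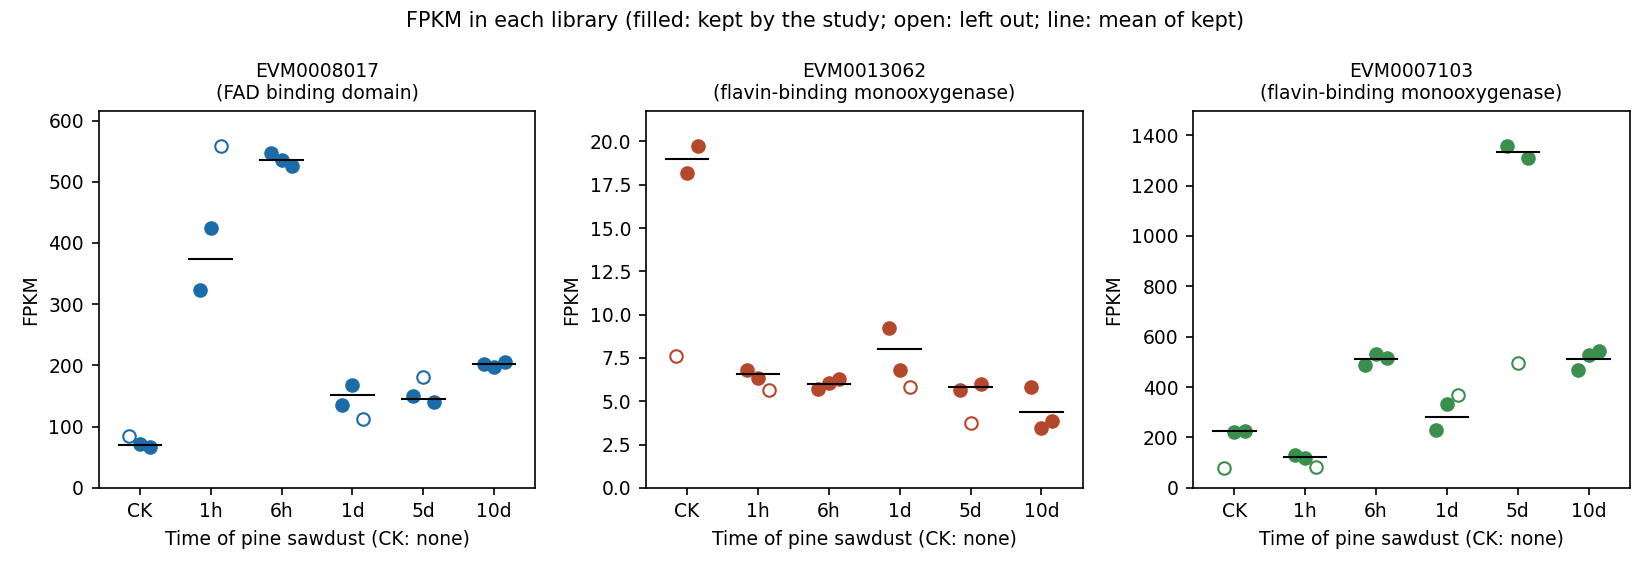
FPKM of EVM0008017, EVM0013062 and EVM0007103 (y axis, linear from 0, a different range in each panel) in each of the 18 libraries, by group (x axis). Filled points are the 14 libraries kept by the study, open points the 4 left out, and the lines are means of the kept libraries; EVM0008017 is highest at 6h (525 to 547 FPKM), EVM0013062 in the kept CK libraries (18.2 and 19.8) and EVM0007103 in the kept 5d libraries (1358 and 1308).

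The genes also sat at different levels of expression. Their means over the 18 libraries were 257 FPKM for EVM0008017, 7.38 FPKM for EVM0013062 and 446 FPKM for EVM0007103, which placed them at percentiles 90.5, 27.9 and 95.7 of the table. The median gene had 27.2 FPKM. Over the libraries, their coefficients of variation were 69.4%, 60.2% and 81.5%, against a median of 47.9% for all genes of the table. All 3 passed the filter on low values.

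EVM0008017, the salicylate hydroxylase-like gene, had 84.9 FPKM in CK replicate 1 (left out) and 71.0 and 67.4 FPKM in CK replicates 2 and 3. It reached 324 and 424 FPKM in 1h replicates 1 and 2, and 559 FPKM in 1h replicate 3 (left out). The 6h libraries were tightly grouped, at 547, 535 and 525 FPKM. Every library of these early times was far above every CK library.

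At 1d, EVM0008017 had 136 and 167 FPKM in replicates 1 and 2 and 112 FPKM in replicate 3 (left out). At 5d it had 150 and 140 FPKM in replicates 1 and 3 and 180 FPKM in replicate 2 (left out). At 10d it had 202, 198 and 206 FPKM. The gene was therefore lower in each of these 3 groups than in any 1h or 6h library, yet all 15 libraries with PSI, the left-out ones included, remained above the 3 of CK. Of all genes tested with 18 libraries, 22.0% lay wholly above CK at 1h, 34.4% at 6h, 20.5% at 1d, 28.8% at 5d and 36.7% at 10d.

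In limma on log2(FPKM + 1), the log2 fold change of EVM0008017 against CK was 2.40 ± 0.12 (SE) at 1h, 2.93 ± 0.11 at 6h, 1.11 ± 0.12 at 1d, 1.05 ± 0.12 at 5d and 1.53 ± 0.11 at 10d. Each passed the thresholds used throughout, a Benjamini-Hochberg adjusted p under 0.01 over all genes and a fold change above 2, with the largest limma adjusted p at 5d (3.47e-06). Of all genes tested, 10.6% were called up at 1h, 13.9% at 6h, 8.55% at 1d, 14.2% at 5d and 18.5% at 10d, and those up at all 5 times made up 0.460%. The study had picked EVM0008017 and EVM0013062 from these same 14 libraries because they changed at every time, so these calls are a description and not independent evidence. With all 18 libraries the fold change at 1d was 0.87 ± 0.18 and missed the fold threshold, while the other 4 times passed.

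The decline of EVM0008017 after 6h was a contrast that the study's choice had not used directly. Both 6h and 1d had entered that choice through their changes against CK, and 6h had the highest mean in these same libraries. The decline is therefore also a description and not independent evidence. EVM0008017 fell by 1.82 ± 0.11 (SE) on the log2 scale in 1d against 6h (limma adjusted p 6.75e-09). In that comparison 22.0% of genes were called in either direction. In the fit of 18 libraries the difference was -1.96 (limma adjusted p 5.84e-07), where 15.7% of genes were called. EVM0008017 was likewise lower at 10d than at 6h (log2 difference -1.40 ± 0.10 SE, limma adjusted p 1.53e-08; 37.8% of genes called).

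Ordered by mean FPKM over the 14 libraries, EVM0008017 ran from CK through 5d, 1d, 10d and 1h up to 6h. Among neighbours in this order, only the step between 5d and CK passed both thresholds. The step from 10d up to 1h was 0.87 ± 0.11 on the log2 scale (limma adjusted p 5.23e-06; 49.4% of genes called), under the fold threshold. With all 18 libraries 1d and 5d changed places, and the lowest step, from CK to 1d (0.87 ± 0.18), was not called. The only step called there was from 10d to 1h (1.07 ± 0.18, limma adjusted p 8.48e-05, 43.7% of genes called). The groups 5d and 1d differed by -0.06 ± 0.12 on the log2 scale (limma adjusted p 0.667; 19.9% of genes called), and their libraries overlapped. The 6h group exceeded 1h by 0.53 ± 0.11 (limma adjusted p 0.000814; 19.8% of genes called), under the fold threshold. With the left-out 1h library in, the groups overlapped and the difference was 0.33 (limma adjusted p 0.165; 16.1% of genes called).

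**Figure D2:**
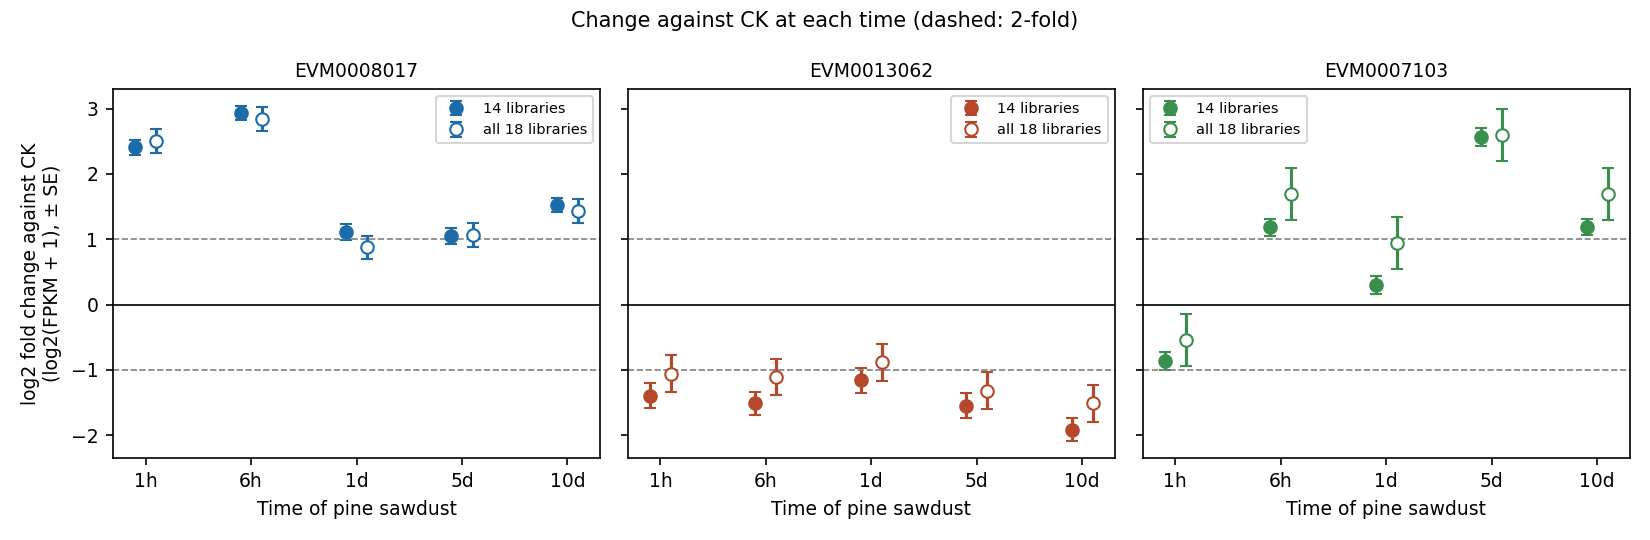
Log2 fold change against CK on the log2(FPKM + 1) scale (y axis) at each time of PSI (x axis) for the 3 genes, with bars of ± 1 SE from limma, from the 14 kept libraries (filled) and all 18 (open). Dashed lines mark a 2-fold change; EVM0008017 stands above 0 and EVM0013062 below 0 at all 5 times, whereas EVM0007103 is below 0 at 1h (-0.86) and reaches 2.56 at 5d with 14 libraries.

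EVM0013062, the least abundant of the 3, had 18.2 and 19.8 FPKM in CK replicates 2 and 3 but 7.61 FPKM in CK replicate 1 (left out). At 1h it had 6.81 and 6.37 FPKM in replicates 1 and 2 and 5.63 FPKM in replicate 3 (left out), and at 6h 5.71, 6.03 and 6.28 FPKM. All of these libraries with PSI were below every CK library, by a wide gap to the kept ones and a narrow gap to CK replicate 1.

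At 1d, EVM0013062 had 9.23 and 6.80 FPKM in replicates 1 and 2 and 5.83 FPKM in replicate 3 (left out). At 5d it had 5.65 and 6.00 FPKM in replicates 1 and 3 and 3.74 FPKM in replicate 2 (left out), and at 10d 5.84, 3.48 and 3.85 FPKM. Only 1d overlapped with CK over the 18 libraries, through 1d replicate 1 and CK replicate 1. Of all genes tested with 18 libraries, 27.7% lay wholly below CK at 1h, 26.6% at 6h, 37.3% at 5d and 50.0% at 10d.

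In limma, EVM0013062 changed against CK by a log2 fold change of -1.40 ± 0.19 (SE) at 1h, -1.51 ± 0.17 at 6h, -1.16 ± 0.19 at 1d, -1.55 ± 0.19 at 5d and -1.91 ± 0.17 at 10d. All 5 were called, with the largest limma adjusted p at 1d (0.000155), and 2.02% of genes were down at all 5 times. At the single times, 7.44% of genes were called down at 1h, 8.82% at 6h, 18.3% at 1d, 22.3% at 5d and 35.0% at 10d. The changes were smaller with all 18 libraries, from -0.88 ± 0.28 at 1d (limma adjusted p 0.0162, not called) to -1.51 ± 0.28 at 10d (limma adjusted p 0.000196). Adding CK replicate 1 alone to the 14 libraries, an alternative chosen after the values were seen, gave -0.99 at 1h and -0.76 at 1d, both short of the fold threshold. The size of the decrease thus rested on which CK libraries were used.

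Among the times of PSI, the mean of EVM0013062 differed less than between any of them and CK. It was 6.59 ± 0.31 FPKM at 1h (SD, n = 2), 6.01 ± 0.29 at 6h (n = 3), 8.02 ± 1.72 at 1d (n = 2), 5.83 ± 0.25 at 5d (n = 2) and 4.39 ± 1.27 at 10d (n = 3) over the kept libraries, against 19.0 ± 1.10 in CK (n = 2). Of the 10 differences between PSI times, 0 passed both thresholds in limma with 14 or with 18 libraries, and 3 and 1 of them had a p under 0.05 before adjustment. EVM0013062 was lower in 10d than in 1d by a log2 difference of -0.76 ± 0.17 (SE; limma adjusted p 0.00146), which passed the p threshold and missed the fold threshold. It was -0.63 ± 0.28 with all 18 libraries (limma adjusted p 0.0641). In the 14 libraries 33.5% of genes were called in 10d against 1d, 49.4% in 10d against 1h, 25.9% in 1d against 1h, 35.5% in 5d against 1h and 24.2% in 5d against 6h, and over all 10 comparisons the share was 10.4% to 49.4% (0.457% to 43.7% with 18 libraries). The order, from 10d through 5d, 6h, 1h and 1d up to CK, was the same with both sets.

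EVM0007103 had 223 and 227 FPKM in CK replicates 2 and 3 and 77.7 FPKM in CK replicate 1 (left out). It had 130 and 117 FPKM in 1h replicates 1 and 2 and 83.1 FPKM in 1h replicate 3 (left out), and 486, 532 and 517 FPKM at 6h. The 1h libraries were below the kept CK libraries but above CK replicate 1, and the 6h libraries were above all of CK.

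At 1d, EVM0007103 had 231 and 333 FPKM in replicates 1 and 2 and 369 FPKM in replicate 3 (left out). At 5d it had 1358 and 1308 FPKM in replicates 1 and 3 but 497 FPKM in replicate 2 (left out). At 10d it had 468, 527 and 544 FPKM. The kept 5d libraries were the highest of the series, and the left-out 5d library lay inside the range of 10d.

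EVM0007103 was picked by the study from a co-expression module built on all 18 libraries, among genes changed at 10d. The study chose that module for its correlation with the time of PSI. The calls of EVM0007103 against CK are therefore a description and not independent evidence. Since time entered that choice, the same holds for the differences between times of PSI in EVM0007103. Against CK, its log2 fold change in limma was 1.18 ± 0.12 (SE) at 6h, 2.56 ± 0.14 at 5d and 1.18 ± 0.12 at 10d, all called. At 1h it was -0.86 ± 0.14 (limma adjusted p 0.000133), under the fold threshold, and at 1d 0.30 ± 0.14 (limma adjusted p 0.0695). The value at 1d was 0.56 without 1d replicate 1 and 0.04 without 1d replicate 2. With all 18 libraries the SE was 0.39, and the changes were -0.54 at 1h (limma adjusted p 0.289), 1.69 at 6h, 0.94 at 1d (limma adjusted p 0.0577), 2.59 at 5d and 1.69 at 10d, with the same 3 times called. After quantile normalization the changes were 0.80 at 6h and 0.89 at 10d, below the fold threshold, and -1.10 at 1h, past it.

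Between successive times, EVM0007103 alternated. It was higher in 6h than in 1h by 2.04 ± 0.12 (SE) on the log2 scale (limma adjusted p 2.07e-08). In 1d against 6h it differed by -0.88 ± 0.12 (limma adjusted p 3.75e-05), under the fold threshold. With all 18 libraries that difference was -0.74 ± 0.39 (limma adjusted p 0.164), and after quantile normalization it was -0.41, neither of them called. With a single library left at 1d, the difference was -1.14 without 1d replicate 2 and -0.62 without 1d replicate 1. EVM0007103 was higher in 5d than in 1d by 2.26 ± 0.14 (limma adjusted p 2.18e-08). The rise was called with all 18 libraries as well (1.65 ± 0.39, limma adjusted p 0.00364, 13.4% of genes called).

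In 10d against 5d, EVM0007103 changed by -1.38 ± 0.12 (SE; limma adjusted p 1.70e-06), and 10.4% of genes were called in that comparison. This call rested on leaving out 5d replicate 2. When it was kept, the difference over 18 libraries was -0.90 ± 0.39 (limma adjusted p 0.147; 0.457% of genes called), and the groups overlapped. The levels at 10d and 6h were side by side, with a log2 difference of 0.00 ± 0.11 and means of 513 ± 40.1 and 512 ± 23.3 FPKM (SD, n = 3 each). In the order of means, 1h was lowest, followed by CK, 1d, 6h, 10d and 5d, and only the last step passed both thresholds.

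Counted by time over the 14 libraries, 2 of the 3 genes were called at 1h, 3 at 6h, 2 at 1d, 3 at 5d and 3 at 10d. EVM0013062 was the gene called down each time, and the shares of all genes called up or down are those given above, together largest at 10d (18.5% up, 35.0% down). Over all 18 libraries 2 were called at 1h (15.3% of all genes), 3 at 6h (18.5%), 0 at 1d (21.0%), 3 at 5d (29.3%) and 3 at 10d (45.9%). At 1d all 3 had a limma p under 0.05 before adjustment, with log2 fold changes of 0.87, -0.88 and 0.94. The 5 comparisons share the CK libraries. The median gene changed by -0.12 at 1h, 0.02 at 6h, -0.13 at 1d, -0.23 at 5d and -0.44 at 10d on the log2 scale. In bulk RNA, fewer cells of a kind and less RNA per cell cannot be told apart.

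Since FPKM is scaled by length, the levels of 2 genes can be set side by side within a library, free of any factor common to that library. In the kept libraries EVM0008017 exceeded EVM0013062 by a mean log2 ratio of 1.87 ± 0.14 in CK (SD, n = 2), 5.81 ± 0.35 at 1h (n = 2) and 6.48 ± 0.10 at 6h (n = 3). The ratio was 4.25 ± 0.52 at 1d (n = 2), 4.63 ± 0.13 at 5d (n = 2) and 5.56 ± 0.39 at 10d (n = 3). In CK replicate 1 EVM0008017 was 11.2 times EVM0013062, against 3.41 and 3.90 times in the other CK libraries, still below the lowest library with PSI (14.7 times, at 1d).

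The balance of the abundant pair, EVM0008017 and EVM0007103, differed in direction between the groups. Their mean log2 ratio was -1.70 ± 0.07 in CK (SD, n = 2), 1.59 ± 0.39 at 1h (n = 2) and 0.07 ± 0.09 at 6h (n = 3), with EVM0008017 the more abundant in all 3 libraries at 1h. It was -0.88 ± 0.16 at 1d (n = 2), -3.21 ± 0.03 at 5d (n = 2) and -1.34 ± 0.11 at 10d (n = 3), with EVM0007103 the more abundant in every library of these 3 times. CK replicate 1 stood apart, with EVM0008017 at 1.09 times EVM0007103, against 0.318 and 0.297 times in CK replicates 2 and 3.

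**Figure D3:**
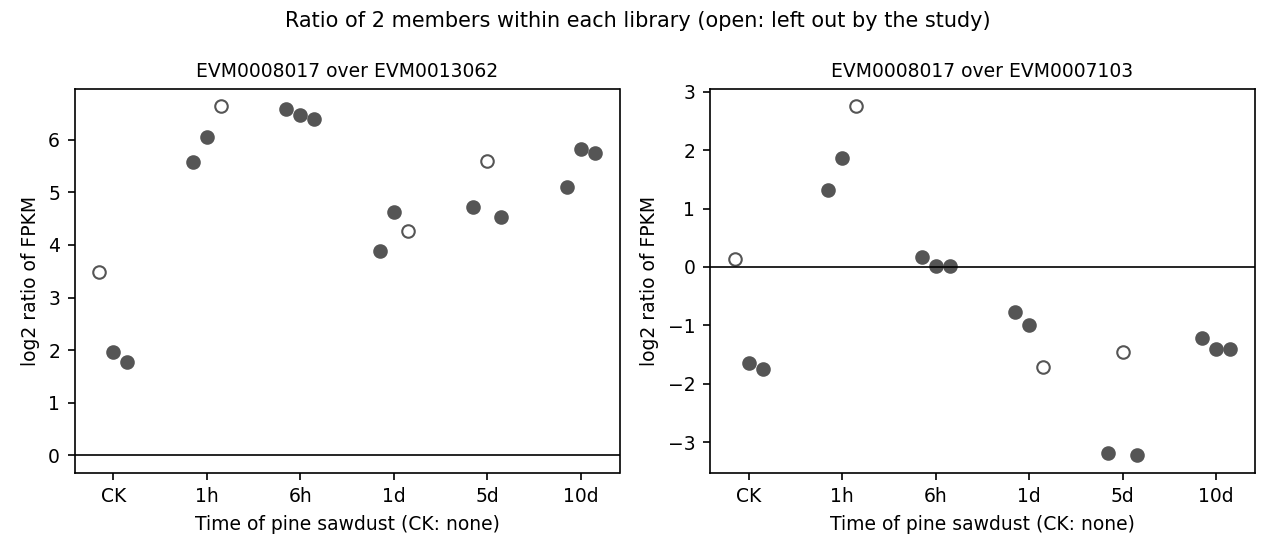
Log2 ratio of FPKM within each library (y axis) for EVM0008017 over EVM0013062 (left) and over EVM0007103 (right), by group (x axis), with open points for the 4 libraries left out by the study. The left ratio is higher in every library with PSI than in any CK library, and the right ratio is highest at 1h (2.48 to 6.73 times) and lowest in the kept 5d libraries (0.110 and 0.107 times).

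Over the 18 libraries, which share groups and processing, the 3 genes showed no common course. Pearson's r of log2(FPKM + 1) was -0.52 between EVM0008017 and EVM0013062, -0.02 between EVM0008017 and EVM0007103, and -0.34 between EVM0013062 and EVM0007103. Spearman's rho was -0.47, 0.12 and -0.56 for the same pairs. These are descriptions over libraries of 6 groups.

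For each gene, the 3 others of 1092 with the most similar profile were sought by r over the 18 libraries. For EVM0008017 they were EVM0006331 (r = 0.900), EVM0007665 (0.895) and EVM0012147 (0.895). EVM0006331 had its highest kept mean at 1h, with 778 FPKM against 108 in CK, and the other 2 had theirs at 6h, as EVM0008017 did. For EVM0007103 they were EVM0008438 (0.925), EVM0012838 (0.915) and EVM0008935 (0.911), each with its highest kept mean at 5d. EVM0008438, for instance, had 156 FPKM at 5d against 42.2 in CK. No annotation of these 6 genes was found in the sources used here.

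For EVM0013062 the most similar were Sparassis_latifolia_newGene_210 (r = 0.953), EVM0002455 (0.950) and EVM0008301 (0.945). All had a higher mean in the kept CK libraries than at any time of PSI. EVM0008301 encodes a TauD/TfdA-family dioxygenase, a class that uses iron and 2-oxoglutarate, and had 32.7 and 33.0 FPKM in CK replicates 2 and 3 but 8.89 FPKM in CK replicate 1. By rank the likeness was looser. Spearman's rho was 0.71 for EVM0008301, which stood at place 124 of 1092 by rho. Sparassis_latifolia_newGene_210 stood at place 52 and EVM0002455 at place 48. The study named both EVM0013062 and EVM0008301 among genes changed at every time of PSI in these libraries. A difference between CK and PSI was therefore part of why the study named them. Over the 15 libraries with PSI alone, chosen as an alternative after the values were seen, r with EVM0008301 was 0.85 and rho 0.67.

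**Figure D4:**
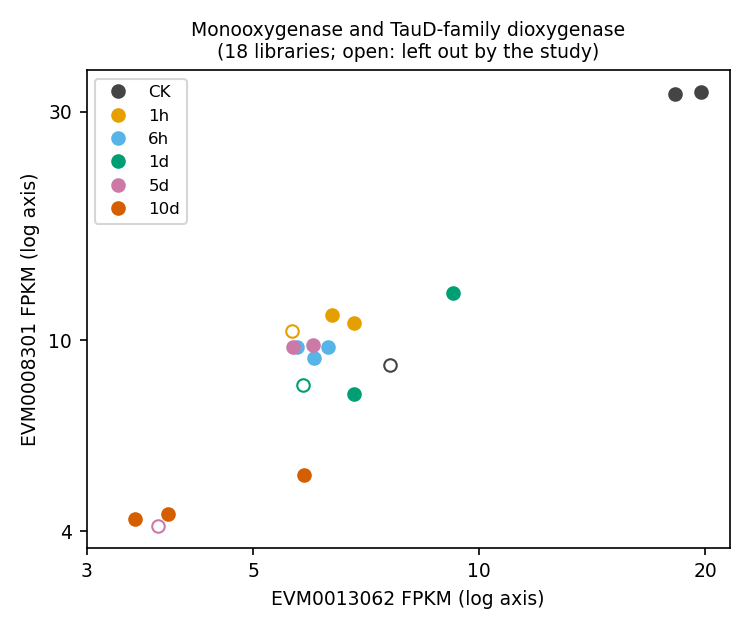
FPKM of EVM0008301 (y axis, log scale) against EVM0013062 (x axis, log scale) in the 18 libraries, coloured by group, with open points for the 4 libraries left out by the study. CK replicates 2 and 3 lie apart at the upper right (18.2 and 19.8 FPKM of EVM0013062), while CK replicate 1 (7.61 and 8.89 FPKM) lies among the libraries with PSI.

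Other flavin enzymes named in the study's lists were set beside the 3 genes, and 6 of 8 were in the table. They comprised the flavin-binding monooxygenase EVM0002057, the GMC oxidoreductases EVM0000788 and EVM0010522 (a family that includes peroxide-forming alcohol oxidases), the nitronate monooxygenases EVM0003801 and EVM0012859 (which oxidize nitronates with FMN), and the dihydroorotate dehydrogenase EVM0005918, of pyrimidine synthesis. The study chose them for changes in these libraries, so their directions are not independent evidence. EVM0007161 and EVM0008932 were not analysed here.

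Of these 6 enzymes, 1 was up at 1h, 2 at 6h, 1 at 1d, 6 at 5d and 5 at 10d, and 0 were down at any time. The shares of all genes up at these times are those given for EVM0008017, from 8.55% at 1d to 18.5% at 10d. Their median log2 fold change was 1.29 at 5d and 1.92 at 10d, against -0.23 and -0.44 for all genes. From all 18 libraries, 0, 2, 1, 5 and 5 were called up in the order of the times, where 9.97%, 14.1%, 6.50%, 11.7% and 14.1% of all genes were up, and at 1h EVM0000788 fell short with a limma adjusted p of 0.013 and a p under 0.05 before adjustment. EVM0000788 was called at all 5 times, from 1.14 ± 0.11 (SE) at 5d to 2.07 ± 0.10 at 10d. After quantile normalization 4 of the 6 were up at 5d and 6 at 10d, and EVM0000788 missed the fold threshold at 5d (0.88).

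Of the other flavin enzymes analysed, EVM0002057 alone shares the flavin-binding monooxygenase annotation. Its mean was 27.8 ± 1.95 FPKM in CK (SD, n = 2), 39.6 ± 7.53 at 1h (n = 2), 72.6 ± 2.12 at 6h (n = 3), 19.7 ± 6.14 at 1d (n = 2), 74.0 ± 3.16 at 5d (n = 2) and 140 ± 3.46 at 10d (n = 3). Like EVM0007103 it was called up at 6h, 5d and 10d and not at 1h or 1d, but it was highest at 10d. Its log2 fold changes were 1.35 ± 0.15 (SE) at 6h, 1.38 ± 0.16 at 5d and 2.30 ± 0.15 at 10d. EVM0013062, EVM0007103 and EVM0002057, the flavin-binding monooxygenase-like genes analysed here, thus had their highest means in CK, at 5d and at 10d, in that order. Whether the table holds others was not examined.

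**Figure D5:**
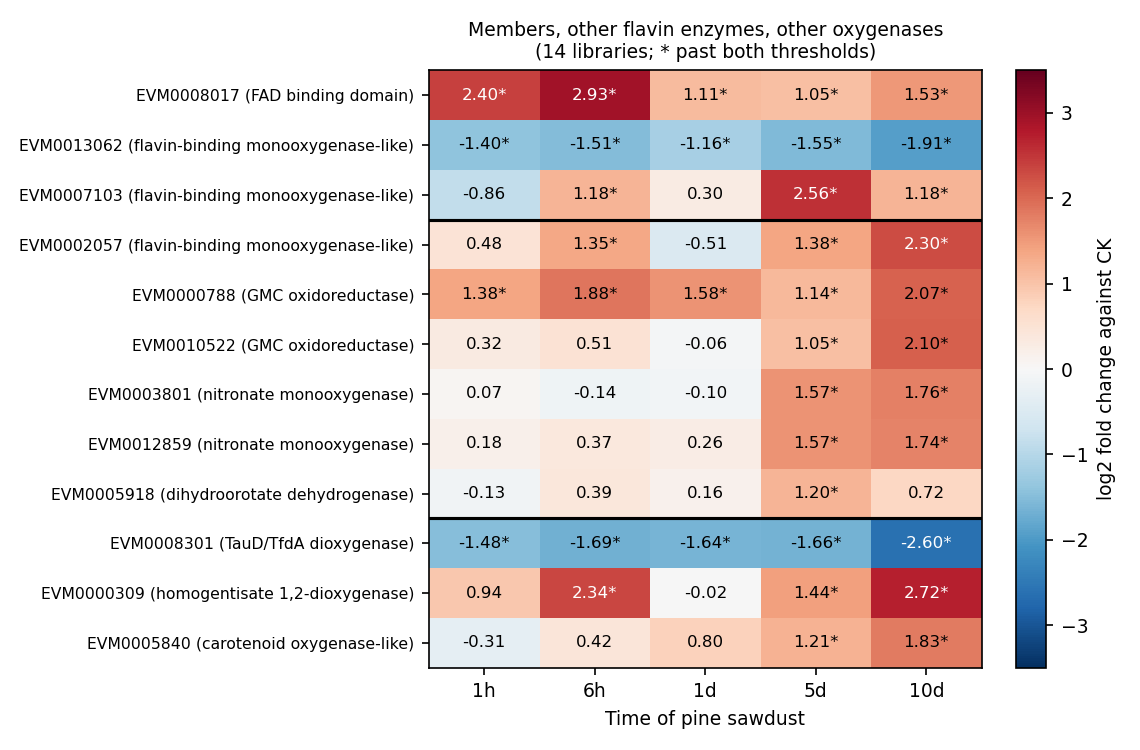
Log2 fold change against CK on the log2(FPKM + 1) scale (colour and printed value) at each time of PSI (x axis) for the 3 genes, 6 other flavin enzymes and 3 other oxygenases (y axis), from the 14 kept libraries, with an asterisk where both thresholds were passed. EVM0013062 and EVM0008301 are the genes called down, at all 5 times, and the other flavin enzymes are all called up at 5d.

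Of 5 other oxygenases named by the study, 3 were in the table, and the cytochrome P450 genes EVM0006224 and EVM0010759 were not analysed here. These too came from lists that the study chose on these libraries, so their directions are not independent evidence. Shares of all genes called up are those given for EVM0008017, and of genes called down those given for EVM0013062. EVM0008301 was called down at all 5 times, from -1.48 ± 0.17 (SE) at 1h to -2.60 ± 0.16 at 10d, whereas with all 18 libraries it was called at 5d and 10d alone. EVM0000309, a homogentisate dioxygenase of tyrosine breakdown, was up at 6h (2.34 ± 0.20), 5d (1.44 ± 0.21) and 10d (2.72 ± 0.20). EVM0005840, similar to carotenoid oxygenases, was up at 5d (1.21 ± 0.08) and 10d (1.83 ± 0.07).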

How the data were processed

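RNA-seq of mycelium gave 18 libraries in 6 groups. The deposited FPKM values were made by the authors, who mapped reads with HISAT2, assembled transcripts with StringTie and, per the study's methods, quantified expression with a procedure based on RSEM. Bowtie 0.12.2 is listed too in the submitters' processing notes. No genome build is given in the sources used here. The table header names no unit, and the unit was read from the FPKM columns of the study's gene lists. The table holds 1100 genes (985 with EVM identifiers, 115 new genes), and the rule that chose them is not stated, so counts of called genes cover these alone. Read counts per gene are not in this table, so the depth behind each value is unknown and no counting interval is given. FPKM is relative to each library's total, which a few abundant genes can shift.

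Values were taken as log2(FPKM + 1), so fold changes of low genes are understated. Genes with at least 1 FPKM in at least 2 libraries entered, 1088 with the 14 libraries kept by the study and 1093 with all 18. limma 3.58.1 (R 4.3.3) fitted the 6 groups together, with a variance trend, two-sided tests and Benjamini-Hochberg adjustment within each of 15 comparisons. Called means adjusted p under 0.01 and fold change above 2. limma took the place of the count model used in the study because the values are FPKM. The fits were also run on data simulated from the spread of the 14 libraries. That run scored adjusted p and direction without the fold threshold, so it did not test the rule for calling. The study names its replicates biological. Groups with 2 kept libraries borrow the spread of the others, and errors of the 14-library fit leave out the departures of the 4 libraries set aside.

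The named genes were the 3 members, the 3 genes most correlated with each, and the listed enzymes. Members and lists were chosen with earlier results of these data known. Alternatives were all 18 libraries, each library left out or each left-out library added, 2-group fits, quantile normalization, no filter, a pseudocount of 0.1, no variance trend, other thresholds and a replicate block. Replicate numbers did not pair the libraries. Python 3.11.15 with pandas 2.3.3 and matplotlib 3.10.9 made tables and figures.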

Additional observations from a re-analysis of the deposited data

Results flagged for a closer look

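The change against CK differed between successive times of PSI in 4 cases among the 3 genes, each tested as the difference between those times in limma with 14 libraries. For EVM0008017 the log2 difference was -1.82 in 1d against 6h, where 22.0% of all genes were called. For EVM0007103 it was 2.04 in 6h against 1h (19.8% of genes called) and 2.26 in 5d against 1d (19.9%). In 10d against 5d it was -1.38 (10.4% of genes called). With all 18 libraries the first 3 were called as well, and the last was not (-0.90). In that fit 15.7%, 16.1%, 13.4% and 0.457% of all genes were called, in the same order. The study chose both genes from these same libraries, so the 4 cases are a description and not independent evidence. Single outlying libraries within groups of 3 were not tested.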

How the results depend on the processing

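Of 1018 values recomputed for the 3 genes, 935 kept their direction and their side of the thresholds. Of the others, 65 were no longer called, 8 became called and 10 changed sign, and the cause was not tested. Many of the 1018 came from leaving out a library of a group outside the comparison. That leaves the log2 fold change as it was and moves only its SE and adjusted p, so the 935 overstate the stability. Against CK, EVM0008017 at 1d was not called with all 18 libraries (0.87) or with 1d replicate 3 added (0.97), and leaving out single libraries gave 0.96 to 1.26 from the 14 and 0.73 to 1.01 from the 18 (0.97, 0.84, 0.81 and 0.88 among them). At 5d it was 0.95 after quantile normalization and with CK replicate 1 added, and 0.95 to 1.16 (0.99 among them) on leaving out single libraries of the 18. EVM0013062 at 1d was -0.88 with all 18 libraries and -0.76 with CK replicate 1 added, with -1.36 to -0.96 on leaving out libraries of the 14 and -1.29 to -0.65 of the 18 (-0.71, -1.05, -0.85 and -0.76 among them). At 1h it was -0.99 with CK replicate 1 added. Leaving out libraries of the 18 gave -1.46 to -0.83 at 1h (-0.88, -1.11, -1.07 and -0.99 among them). At 6h it gave -1.51 to -0.88 (-0.93, -1.08, -1.11 and -1.14 among them). The values in the brackets for EVM0013062 and the ends of -0.83 and -0.88 were not called. Leaving out any single 1h library undid the call at 1h (limma adjusted p 0.0142 to 0.0260). Leaving out any single 6h library undid that at 6h (limma adjusted p 0.0129 to 0.0172). EVM0007103 was 0.80 at 6h and 0.89 at 10d after quantile normalization, both no longer called, and at 6h 1.18 to 1.95 on leaving out libraries of the 18 (not called at 1.18 and 1.66). At 1h it became called after quantile normalization (-1.10) and with 1h replicate 3 added (-1.05).

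Between times, EVM0008017 in 5d against 1d changed sign with all 18 libraries (0.19), with 1d replicate 3 (0.081) or 5d replicate 2 (0.045) added, and on leaving out libraries of the 14 (-0.21 to 0.087). EVM0013062 in 5d against 6h was 0.19 after quantile normalization and -0.074 to 0.00017 on leaving out libraries, and EVM0007103 in 10d against 6h was -0.042 to 0.067 (-0.019 and -0.034 among them). EVM0008017 in 10d against 1h became called with all 18 libraries (-1.07), EVM0007103 in 1d against 6h was -1.14 to -0.62 on leaving out libraries of the 14, called at -1.14, and EVM0007103 in 10d against 5d was not called with 5d replicate 2 in (-0.90).

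The replicate block changed no call of the 3 genes with 14 libraries. With all 18 libraries the replicate block gave 0.87 for EVM0008017 and -0.88 for EVM0013062 at 1d, -1.06 for EVM0013062 at 1h (no longer called), and 0.19 for EVM0008017 in 5d against 1d. Same-numbered libraries of different groups had correlated deviations of -0.54 to 0.45 over 45 pairs (median -0.03), with 7 above 0.1. Differently numbered ones had -0.51 to 0.59 over 90 pairs (median 0.02), with 23 above 0.1. Of the libraries, 2 correlated best with their own number.

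Counts of called genes moved by over 1.5 times in these cases. In 10d against 5d, 113 genes were called with 14 libraries, 5 with all 18, 2 with the replicate block and all 18, 75 after quantile normalization and 398 with no fold threshold. In 5d against 1d the replicate block with all 18 gave 133 genes, against 216 with 14 libraries. With no fold threshold the counts were 473 at 1h, 618 at 6h, 571 at 1d, 777 at 5d and 899 at 10d against CK (196, 247, 292, 398 and 582 with it). Between times they were 526 in 6h against 1h, 496 in 1d against 6h and 575 in 5d against 1d (215, 239 and 216 with it).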
